A study of Mus musculus with 20 samples.

Results

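The endocytosis and identity genes of the kidney proximal tubule were taken by their symbols, namely Lrp2, Cubn, Amn, Dab2, Aqp1, Gpx3, Acsm2, Hnf4a and Ggt1. They are 9 of the 55642 genes in the deposited tables, and each symbol was carried by 1 gene identifier. Adult males of the inbred strain DBA/2J had been injected intraperitoneally every day for 3 weeks with JQ1, an inhibitor of the BET bromodomain proteins, at 50 mg/kg, while controls got the vehicle. Bulk RNA-seq was made of kidney and liver at the end of dosing (treatment, 10 weeks of age) and 6 weeks after the last dose (recovery, 16 weeks of age). Each organ had 10 libraries. JQ1 treatment and JQ1 recovery had 3 each, and vehicle had 3 at the end of dosing and 1 at recovery. These 4 were used together as the control of their organ, so 3 of the 4 controls of the recovery group were younger than that group. The numbers and ages are those of the sample labels, while 1 supplementary legend swaps the vehicle numbers between the ages and names a shorter recovery. JQ1 was given to the whole animal, so that kidney and liver were exposed together. Whether libraries of a group came from separate animals was taken from their separate labels, and p-values measure the spread between these libraries.

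The proximal tubule takes back most of the protein, water, glucose and phosphate that the glomerulus lets through. Protein is taken up by clathrin-mediated endocytosis at the foot of the brush border, where the giant receptor megalin (Lrp2) and the peripheral receptor cubilin (Cubn) bind filtered proteins and vitamin carriers. Cubilin has no membrane-spanning part and is held at the surface by amnionless (Amn), while the adaptor Dab2 links megalin to the clathrin coat. The other 5 genes mark what the segment does besides. Aqp1 encodes the water channel of the proximal tubule and the thin descending limb, Gpx3 the secreted selenium-containing glutathione peroxidase of plasma, Acsm2 a mitochondrial medium-chain acyl-CoA synthetase, Ggt1 the brush border enzyme that opens the breakdown of glutathione, and Hnf4a a nuclear receptor that drives the proximal tubule programme and, in liver, that of the hepatocyte.

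The kidney libraries held 13952510 to 26895318 reads (median 17831100) and the liver libraries 11968500 to 17529910. In all, 3 libraries stood apart. The liver JQ1 recovery libraries 2 and 3 carried kidney genes, described with the liver values. In liver JQ1 recovery library 1 some of these genes were slightly above the vehicle livers and others were not. The kidney JQ1 treatment library 1 had a summed level of 1131 CPM for 4 stromal markers, against 239.8 and 362.6 CPM in the other JQ1 treatment libraries and 219.5 to 324.1 CPM in vehicle. In the same library 6 immune markers summed to 376.2 CPM, against 33.56 to 59.5 CPM in vehicle kidneys, and 5 adipocyte markers to 491.6 CPM, against 114.7 to 327.6 CPM. CPM are counts per 1000000 reads of a library, after TMM scaling within the organ. Red cell genes summed to 9349 to 12960 CPM in the JQ1 treatment kidneys, 5500 to 6232 CPM in JQ1 recovery kidneys and 4601 to 8021 CPM in vehicle kidneys. The part of these other cells in the results was not tested. In bulk tissue, fewer cells of a type and less RNA per cell cannot be told apart.

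Bases before the start of 5 of the genes are shown first, because Dab2 and Hnf4a each have a pair of separated starts, whose use was counted, and because Lrp2, Cubn and Amn serve in 1 receptor system. Each line gives the 250 bases upstream of a start site in RefSeq (build GRCm38.p6), 5′ to 3′ on the strand of the gene. A check of the strand was positive for the other windows shown but not for that of Cubn. Capitals mark the letters GTTAAT or their reverse complement, the core of the site bound by the HNF1 factors, which direct much proximal tubule and liver transcription.
Lrp2 (chr2:69586030-69586279, minus strand): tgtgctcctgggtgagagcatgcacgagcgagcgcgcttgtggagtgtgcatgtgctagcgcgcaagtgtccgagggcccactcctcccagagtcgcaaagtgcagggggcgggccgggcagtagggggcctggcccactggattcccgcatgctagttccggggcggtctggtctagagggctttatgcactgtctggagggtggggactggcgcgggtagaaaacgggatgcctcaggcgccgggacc
Cubn (chr2:13491877-13492126, minus strand): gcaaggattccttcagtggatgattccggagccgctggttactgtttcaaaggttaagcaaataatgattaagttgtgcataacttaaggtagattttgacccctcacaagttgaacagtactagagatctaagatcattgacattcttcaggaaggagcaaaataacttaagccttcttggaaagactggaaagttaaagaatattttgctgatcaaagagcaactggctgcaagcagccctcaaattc
Amn (chr12:111270846-111271095, plus strand): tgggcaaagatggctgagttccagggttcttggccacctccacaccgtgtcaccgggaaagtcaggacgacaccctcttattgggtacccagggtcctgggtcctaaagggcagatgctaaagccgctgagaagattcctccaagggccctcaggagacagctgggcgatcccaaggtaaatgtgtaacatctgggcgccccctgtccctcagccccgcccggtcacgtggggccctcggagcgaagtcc
Dab2 upstream start (chr15:6299539-6299788, plus strand): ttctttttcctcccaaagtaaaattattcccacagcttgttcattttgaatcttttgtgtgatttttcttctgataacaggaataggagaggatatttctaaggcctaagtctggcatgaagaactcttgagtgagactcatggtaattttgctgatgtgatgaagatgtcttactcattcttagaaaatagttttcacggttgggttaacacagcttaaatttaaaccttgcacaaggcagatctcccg
Dab2 downstream start (chr15:6386498-6386747, plus strand): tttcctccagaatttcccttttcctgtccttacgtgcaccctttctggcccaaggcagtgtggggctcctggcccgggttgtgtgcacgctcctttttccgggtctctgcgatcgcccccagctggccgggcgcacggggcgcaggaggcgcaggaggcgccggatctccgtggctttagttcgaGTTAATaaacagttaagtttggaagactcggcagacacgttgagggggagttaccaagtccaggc
Hnf4a distal start (chr2:163506607-163506856, plus strand): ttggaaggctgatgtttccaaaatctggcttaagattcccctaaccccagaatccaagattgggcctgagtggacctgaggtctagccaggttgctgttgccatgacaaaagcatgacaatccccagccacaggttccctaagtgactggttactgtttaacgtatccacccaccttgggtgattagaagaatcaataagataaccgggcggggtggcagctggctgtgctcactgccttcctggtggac
Hnf4a proximal start (chr2:163546905-163547154, plus strand): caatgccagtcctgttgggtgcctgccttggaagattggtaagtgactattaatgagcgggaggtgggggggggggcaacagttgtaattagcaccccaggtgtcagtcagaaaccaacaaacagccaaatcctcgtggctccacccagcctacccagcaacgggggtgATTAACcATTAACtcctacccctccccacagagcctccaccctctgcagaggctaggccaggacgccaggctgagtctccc

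These windows were unlike each other in base composition. The Lrp2 window was 66.4% G and C with 18 CG pairs and the Amn window 61.2% with 11, whereas the Cubn window was 39.6% with 2. The median of all 32851 RefSeq windows was 52.4% G and C, with quartiles at 45.2% and 61.2%. The same contrast stood within Dab2, whose upstream window was 36.8% G and C with 2 CG pairs and whose downstream window was 60% with 17. The letters GTTAAT, on either strand, were found in 3 of the 15 windows of the 9 genes, at the proximal start of Hnf4a (2 copies separated by 1 base), the downstream start of Dab2 and the first of 2 starts of Acsm2, and in 6.43% of all windows. The longer HNF1 form, GTTAAT and ATTAA parted by any 1 base, and the HNF4A letters CAAAGTCCA, also read on both strands, were in none of the 15 windows and in 0.0609% and 0.384% of all windows. The short letters were searched after the longer ones gave no match. A match is a description of the letters only.

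In vehicle kidneys the 9 genes covered a wide range of levels. Levels per length are given as TPM, summed over the transcripts of a gene. Acsm2 was at 2502 ± 166 TPM and Gpx3 at 2129 ± 230 TPM (SD, n = 4 each), Dab2 at 399.9 ± 50.5 TPM, Ggt1 at 339.2 ± 46.4 TPM and Aqp1 at 130.7 ± 21.5 TPM. Amn was at 65.5 ± 2.6 TPM, Lrp2 at 63.9 ± 3.8 TPM, Hnf4a at 42.7 ± 4.1 TPM and Cubn at 7.18 ± 0.50 TPM. Amn and Lrp2 did not differ beyond their spread, nor did Dab2 and Ggt1, and the lowest Acsm2 level met the highest Gpx3 level. Part of the order rests on short transcript models. When all reads of a gene were set against the length of its most-read transcript, Acsm2 came to 552.2 TPM, Dab2 to 89.4 TPM and Ggt1 to 188 TPM, so that Gpx3 led and Dab2 fell below Aqp1 (134.3 TPM), while the other genes moved less.

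At the end of dosing Amn was the only one of the 9 genes to be called in kidney. It had 153.5, 150.6 and 168.9 CPM in the JQ1 treatment libraries, against 124.9, 123.4 and 129.1 CPM in the vehicle treatment libraries and 132.2 CPM in the vehicle recovery library. Every treated kidney was above every vehicle kidney. The log2 fold change was 0.31 ± 0.07 (95% interval 0.16 to 0.45), a 1.24-fold rise, with an adjusted p of 0.0138 in edgeR's quasi-likelihood test over 17158 genes. Of all genes tested, 4.13% were called in this comparison and 1.4% were called higher. A single gene of 9 is not set apart from that background. DESeq2 called 1 of the 9 as well, against 6.07% of all genes, and 4 of the 9 (Amn, Dab2, Cubn and Gpx3) had an unadjusted p below 0.05, against 17.1%. The call was lost without JQ1 treatment library 3 (0.25, adjusted p = 0.107) and without TMM scaling (0.21, adjusted p = 0.126), a setting that moved the median of all genes to -0.10. It was kept without library 1, where the stromal and immune markers were high (0.33, adjusted p = 0.0204).

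The receptors that Amn serves had smaller differences in the same direction. Cubn had 115.4, 109.2 and 128.4 CPM in JQ1 treatment kidneys, against 93.2, 99.1 and 107.3 CPM in vehicle treatment and 108.1 CPM in vehicle recovery. The lowest treated kidney was just above the highest vehicle kidney, and the log2 fold change of 0.21 ± 0.08 did not pass the test (adjusted p = 0.159). Lrp2 had 1199, 1092 and 1269 CPM in JQ1 treatment kidneys, against 981, 1084 and 1182 CPM in vehicle treatment and 1036 CPM in vehicle recovery. These groups overlapped, with a log2 fold change of 0.15 ± 0.08 (interval -0.02 to 0.32, adjusted p = 0.383). Reads of Cubn per read of Lrp2, a ratio that no scaling can move, were 0.0963 to 0.101 in JQ1 treatment kidneys, 0.0909 to 0.117 in JQ1 recovery kidneys and 0.0908 to 0.104 in vehicle kidneys. Reads of Amn per read of Lrp2 were 0.128 to 0.138 in JQ1 treatment kidneys and 0.109 to 0.128 in vehicle kidneys. In JQ1 recovery kidneys it was 0.118 to 0.158, which overlapped with both other groups. The lowest JQ1 treatment value of this ratio was barely above the highest vehicle value, and the same as rounded here. In the ratio of Cubn to Lrp2 the 3 groups overlapped.

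Dab2, the adaptor, had 510.7, 424.8 and 503.8 CPM in JQ1 treatment kidneys, against 414.3, 408.7 and 435.0 CPM in vehicle treatment and 394.6 CPM in vehicle recovery. Treated libraries 1 and 3 were above every vehicle kidney and library 2 lay within their range. The log2 fold change was 0.22 ± 0.07 (adjusted p = 0.109). It passed the test in 1 of 15 alternatives, the one without library 2 (0.30, adjusted p = 0.0226). With a library left out it ran from 0.17 to 0.30, with an adjusted p of up to 0.345.

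**Figure D1:**
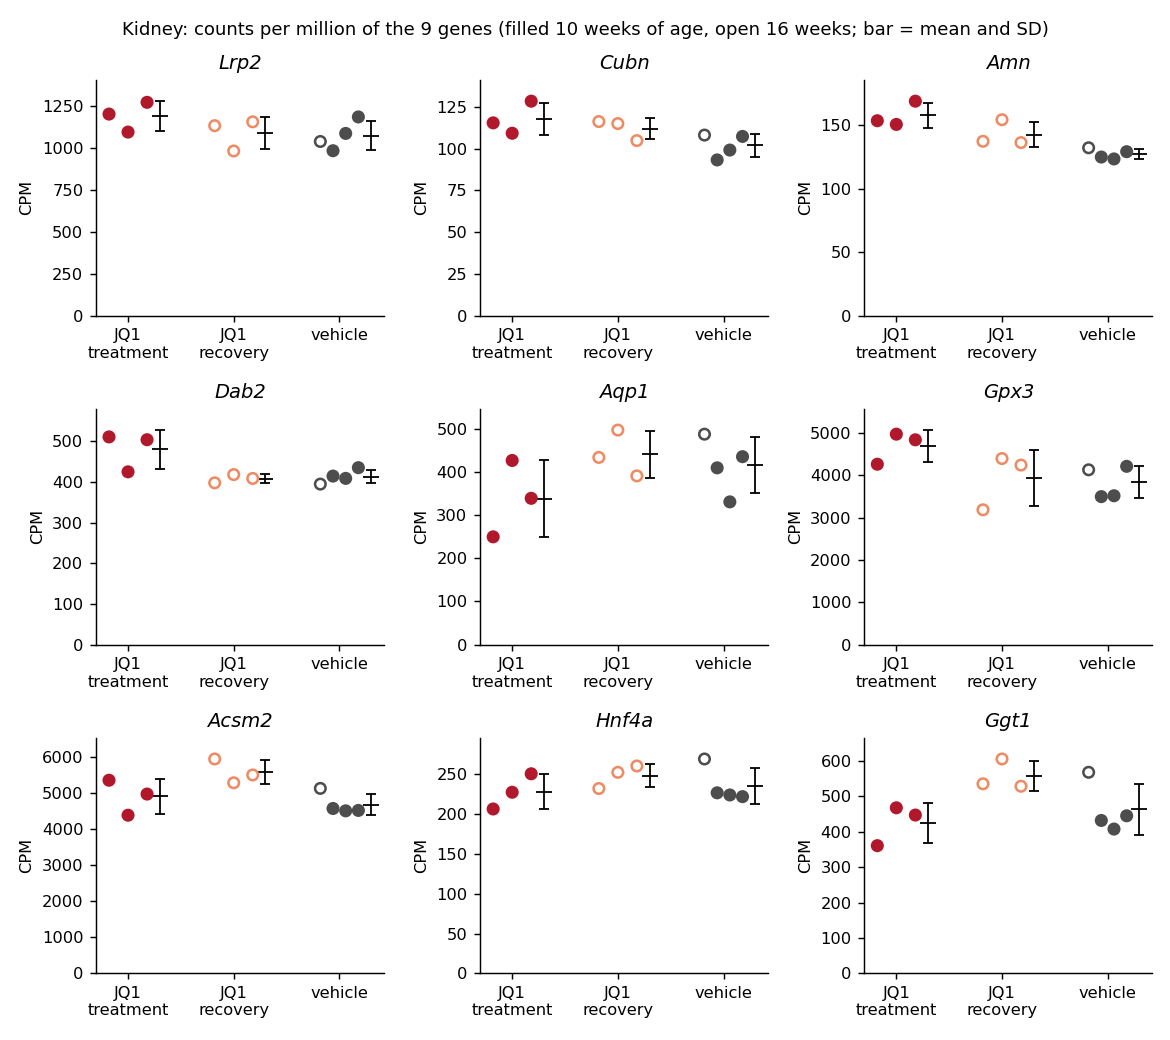
Scaled counts (CPM, y axis from 0) of each of the 9 genes in the 10 kidney libraries, by group. Each point is a library, filled at 10 weeks of age and open at 16 weeks. The bar beside a group is its mean with SD. For Amn the 3 JQ1 treatment kidneys (150.6 to 168.9 CPM) lie clear of the vehicle kidneys (123.4 to 132.2 CPM). For Cubn and Gpx3 they lie only just above the vehicle kidneys. Ggt1 separates open from filled points.

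Among the other 5 genes none passed the test at the end of dosing. Gpx3 had 4259, 4969 and 4836 CPM in JQ1 treatment kidneys, against 3493, 3514 and 4209 CPM in vehicle treatment and 4127 CPM in vehicle recovery. Here too the lowest treated kidney was just above the highest vehicle kidney, and the log2 fold change was 0.29 ± 0.11 (adjusted p = 0.165). It passed in 1 of 15 alternatives, the one with no filter on low counts (adjusted p = 0.0224). With a library left out the adjusted p ran from 0.128 to 0.358. In 3 of the 9 genes, Amn, Cubn and Gpx3, the groups did not overlap, as they did not in 15.2% of all genes tested.

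Aqp1 had the least precise fold change of the 9 genes. It had 249.8, 427.0 and 339.2 CPM in JQ1 treatment kidneys, against 409.9, 330.9 and 435.8 CPM in vehicle treatment and 488.0 CPM in vehicle recovery, with a log2 fold change of -0.30 ± 0.19 (interval -0.74 to 0.15, adjusted p = 0.507). The lowest value was that of the library with high stromal and immune markers, and without it the fold change was -0.12 (adjusted p = 0.817). The 5 genes listed for the thin limb, not for its descending part alone, summed to 73.0 to 115.5 CPM in JQ1 treatment kidneys. In vehicle kidneys they summed to 62.1 to 152.5 CPM.

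Acsm2, Hnf4a and Ggt1 had the values closest to vehicle. Acsm2 had 5346, 4378 and 4963 CPM in JQ1 treatment kidneys, against 4564, 4499 and 4510 CPM in vehicle treatment and 5120 CPM in vehicle recovery (log2 fold change 0.07, interval -0.10 to 0.23, and -0.03 without TMM scaling). Hnf4a had 206.5, 227.5 and 250.7 CPM in JQ1 treatment kidneys, against 226.8, 224.1 and 222.0 CPM in vehicle treatment and 269.3 CPM in vehicle recovery (log2 fold change -0.05, interval -0.22 to 0.13). Ggt1 had 360.9, 467.9 and 447.4 CPM in JQ1 treatment kidneys, against 432.1, 407.8 and 445.3 CPM in vehicle treatment and 568.2 CPM in vehicle recovery (log2 fold change -0.12, interval -0.37 to 0.12). Vehicle recovery was the highest vehicle kidney for each of the 3 genes.

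**Figure D2:**
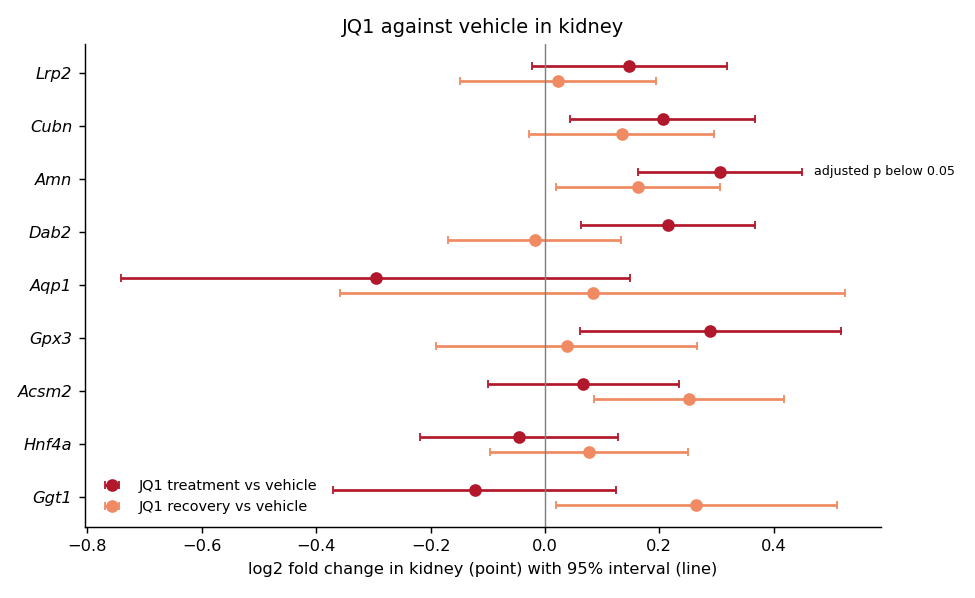
Log2 fold change of the 9 genes in kidney (x axis, points) with 95% intervals (lines), for JQ1 treatment against vehicle and JQ1 recovery against vehicle, which share their 4 vehicle libraries. Amn at the end of dosing (0.31) is the only call, and Aqp1 has the widest intervals.

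At 6 weeks after the last dose none of the 9 genes was called in kidney by edgeR or by DESeq2, against 0.00583% of all genes tested, which is 1 gene, by edgeR and 0.6% by DESeq2. In all, 3 of the 9 had an unadjusted p below 0.05, against 9.16% of all genes. Acsm2 had 5934, 5275 and 5492 CPM in JQ1 recovery kidneys, against 5120 CPM in the vehicle recovery kidney and 4564, 4499 and 4510 CPM in vehicle treatment (log2 fold change 0.25 ± 0.08, adjusted p = 0.322). Amn had 137.3, 154.3 and 136.3 CPM in JQ1 recovery kidneys, all above the 4 vehicle kidneys but by a small margin (0.16 ± 0.07, adjusted p = 0.480). For both genes the vehicle kidney of the same age was the highest of the 4 (5120 and 132.2 CPM), and the other controls were younger. Over 15 alternatives Acsm2 ran from 0.13 to 0.31 and Amn from 0.11 to 0.20. Groups that do not overlap were thus seen in 2 of the 9 genes, against 10.5% of all genes. Dab2 had 397.7, 418.0 and 408.5 CPM in JQ1 recovery kidneys, within the vehicle range, and its log2 fold change was -0.02 (interval -0.17 to 0.13).

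Ggt1 separated the kidneys by their labelled age. It had 535.7, 605.8 and 528.8 CPM in JQ1 recovery kidneys, against 568.2 CPM in the vehicle recovery kidney of the same age and 407.8 to 445.3 CPM in the younger vehicle kidneys. All 4 kidneys of 16 weeks (528.8 to 605.8 CPM) were above all 6 kidneys of 10 weeks (360.9 to 467.9 CPM), with or without JQ1. The log2 fold change of recovery against the 4 vehicle kidneys was 0.26 ± 0.11 (adjusted p = 0.500). It was -0.02 against the vehicle kidney of the same age alone and 0.39 (adjusted p = 0.0422) against the younger vehicle kidneys alone, where 240 genes were called in place of 1. Between the vehicle kidneys alone, older against younger, it was 0.41, given as a size only. The split by age was noticed in the values and rests on 1 vehicle kidney of 16 weeks. The share of all genes that split in this way was not counted, so Ggt1 is not set apart by it.

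Treated kidneys were also set against recovered kidneys directly, a comparison in which 7.31% of all genes were called. None of the 9 genes was called by edgeR. The unadjusted p was below 0.05 for 4, against 21.8% of all genes, and Dab2 and Ggt1, 2 in all, were called by DESeq2, against 9.79%. Dab2 was higher in JQ1 treatment kidneys than in JQ1 recovery kidneys in every pair of libraries (log2 fold change 0.23 ± 0.08, adjusted p = 0.0763) and Ggt1 lower (-0.39 ± 0.12, adjusted p = 0.0749). These 2 of 9 with no overlap stand beside 27.2% of all genes. Age differs by 6 weeks across this comparison, and recovery and age cannot be told apart in it.

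Genes of the same segment and pathways were counted beside the 9. Of 37 other proximal tubule genes, 9 rose and 4 fell at the end of dosing, where 4.13% of all genes were called. Their median log2 fold change was 0.17 against -0.01 for all genes. The 4 that fell were at -0.67, -0.67, -0.57 and -0.41, so the list did not move in 1 direction. Miox, which opens inositol breakdown, rose most clearly (1.02 ± 0.07, adjusted p = 1.904e-07), with Fbp1 (0.68 ± 0.07), a gluconeogenic enzyme, and Slc34a1 (0.45 ± 0.07), the brush border phosphate carrier. Each of these is larger than the 0.31 of Amn. Of 29 genes of the endocytic machinery 4 rose, namely Dnm2 (0.35), the dynamin that pinches off vesicles, Eps15 (0.40), Cltb (0.33), a clathrin light chain, and Eea1 (0.24), an early endosome tether. That count was 1 without JQ1 treatment library 1 and ranged from 0 to 4 over the alternatives, whereas the proximal tubule count ranged from 10 to 15. None of 10 tested genes of the LDL receptor family, to which megalin belongs, was called by edgeR or DESeq2, with 2 at an unadjusted p below 0.05. None of 12 tested proximal tubule transcription factors other than Hnf4a was called by edgeR, with 3 at an unadjusted p below 0.05 and 2 called by DESeq2.

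Relatives of the other members were called where the members were not. Among 7 tested aquaporins Aqp8 fell (-2.13 ± 0.25, adjusted p = 4.817e-05) while Aqp1 was not called. Among 19 tested genes of selenium handling, Dio1, which activates thyroid hormone, fell (-2.33 ± 0.23), Gpx1, the cytosolic glutathione peroxidase, rose (0.62 ± 0.08), and Sephs2, which makes the selenium donor, fell (-0.25 ± 0.06). In the glutathione list Dpep1, the brush border dipeptidase that acts after Ggt1, fell (-0.60 ± 0.09), and Gss, which makes glutathione, fell (-0.40 ± 0.11), 2 of 12 tested. The call was kept in 6 of 15 alternatives for Gss and in 8 of 15 for Sephs2. Of 10 tested acyl-CoA synthetases and glycine conjugating enzymes Keg1 rose (0.51 ± 0.08). Of 14 tested tubule injury genes none was called higher and 4 were called lower, among them Krt8 (-0.57) and Cdkn1a (-0.69). The count of calls was 1 without JQ1 treatment library 1. The tubule injury list as a whole did not fall, with a median log2 fold change of 0.03 and 8 of 14 genes above 0. At 6 weeks after the last dose none of the 206 tested genes of all lists was called by edgeR, 45 had an unadjusted p below 0.05, beside the 9.16% of all genes, and 6 were called by DESeq2. The lists were chosen with earlier results of these data known, and their counts are a description.

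Other nephron segments are measured in the same RNA. Umod, of the thick ascending limb, fell (-0.76 ± 0.13, adjusted p = 0.00684), as did Pvalb of the distal convoluted tubule (-1.93 ± 0.20, adjusted p = 1.831e-05). Each was the only called gene of its list, of 5 and 4 tested. The thick ascending limb genes had a median log2 fold change of 0.12, with 3 of 5 above 0, so Umod went against its list, and the distal convoluted tubule genes had a median of -0.26, with 1 of 4 above 0. Collecting duct genes (8) summed to 261 to 471.9 CPM in JQ1 treatment kidneys and 286.8 to 382.4 CPM in vehicle kidneys, with none called by edgeR or DESeq2 or at an unadjusted p below 0.05.

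The genes whose pattern over the 10 kidney libraries was most like that of each member were found by the root mean square difference of log2 CPM, each gene centred on its own mean, among 8399 genes. Dmxl1 (0.0489) was among those of Dab2. For Amn they were Rabl6 (0.061) and H2-Ke6 (0.0614), for Lrp2 Vti1a (0.0562) and Plcl1 (0.0614), and for Cubn Gm49413 (0.0562) and Ogdh (0.0563). Gpx3 was nearest to Gapdh (0.0719) and Ddx41 (0.0787), and Aqp1, which had the loosest match, to Tm2d3 (0.0766) and Slc6a13 (0.0839). Acsm2 was nearest to Tmem30a (0.0448) and Srpk1 (0.0548), Hnf4a to Rbm10 (0.0489) and Ift20 (0.0532), and Ggt1 to Hpn (0.0599) and Psmc4 (0.0601). The median gene differed from the members by 0.177 to 0.31.

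Liver was the outside measure of how far the 9 genes belong to kidney. Between vehicle kidneys and vehicle livers 8 of the 9 genes were called higher in kidney, in a comparison that called 61.8% of all genes and 32.1% higher in kidney. Ggt1 had 33422 reads over the 4 kidney libraries and 3 reads over the 4 liver libraries, a ratio of 9963 in RPM, reads per 1000000 of the library without TMM scaling (exact Poisson interval of the liver count, 3409 to 48310, counting error only). The ratio was 4695 for Gpx3 (3589 to 6267), 3008 for Lrp2 (2004 to 4745), 1317 for Cubn (564.2 to 4055) and 1243 for Acsm2 (1096 to 1416). With TMM scaling the fitted folds of these genes were lower, at 4939 for Ggt1, 2539 for Gpx3, 1629 for Lrp2 and 678 for Cubn and Acsm2, and they depend on the prior count of the fit. The ratio in RPM was smaller for Amn (77.2), Dab2 (31.1) and Aqp1 (8.51). In the same fit of both organs their log2 differences were 5.41 ± 0.66, 4.11 ± 0.48 and 2.22 ± 0.22, with adjusted p at or below 3.811e-06. Cubn and Ggt1 had no read in 3 of the 4 liver libraries, and all 5 and 3 of their reads lay in vehicle treatment library 3.

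Hnf4a was the exception, the only one of the 9 genes not called between the organs. It had 42.7 ± 4.1 TPM in vehicle kidneys and 13.4 to 18.4 TPM in vehicle livers. In RPM the ratio was 1.76, but after TMM scaling the log2 difference was -0.04 ± 0.09 (adjusted p = 0.721). Without TMM factors it was 0.81, in a setting that put the median of all genes at 0.91 in place of 0.06, so that Hnf4a stayed close to the median gene under both.

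Hnf4a and Dab2 each have a pair of separated starts. In Hnf4a the transcripts that begin at the proximal start held 100% of the reads in 19 of the 20 libraries and 99.98% in the other. The transcript that begins at the distal start, a partial model, had no read in any library, of 2969 to 6087 Hnf4a reads in JQ1 treatment kidneys, 3287 to 5127 in vehicle kidneys and 1728 to 2662 in vehicle livers. Kidney and liver therefore used the same one of the 2 windows printed above, the one with the paired HNF1 letters, at the resolution of this assignment. In Acsm2 the second of 2 starts held 89.3% ± 0.8 of the reads in vehicle kidneys and the first none.

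In Dab2 the organs differed. The downstream start, with the CG-rich window, held 8.64%, 9.58% and 8.62% of Dab2 reads in the vehicle treatment kidneys and 9.82% in the vehicle recovery kidney, against 19.0%, 28.3% and 51.5% in the vehicle treatment livers and 31.8% in the vehicle recovery liver. The groups did not overlap (mean 9.17% in kidney and 32.6% in liver, exact two-sided permutation test, p = 0.0286, the smallest that 4 against 4 allows). With no overlap that p is fixed, so it adds nothing to the values. Start shares were planned as a description, and Dab2 was the only gene tested. The upstream start, with the window low in CG, held 77.9% to 80.3% in vehicle kidneys and 48.5% to 77.6% in vehicle livers. The liver shares rest on 149 to 255 reads per library. JQ1 treatment kidneys had a downstream share of 11.4%, 10.2% and 8.50%, which overlapped with vehicle (difference of 0.88 percentage points, exact p = 0.343, where 0.0571 is the smallest possible). The files give reads as divided among transcripts by a model, so the shares were not read from first exons alone.

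**Figure D3:**
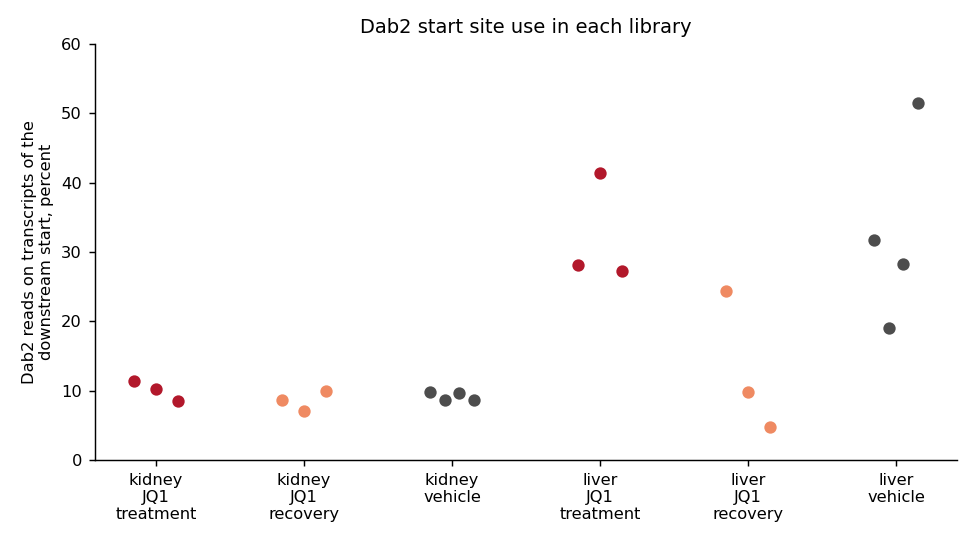
Percent of Dab2 reads assigned to transcripts of the downstream start (y axis), a point for each library, by organ and group. Kidney libraries lie between 7.08% and 11.4%, and liver libraries between 19.0% and 51.5% except JQ1 recovery libraries 2 and 3 at 9.74% and 4.71%.

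In liver, 7 of the 9 genes passed the filter on low counts. Lrp2 and Gpx3 did so with their JQ1 recovery libraries, since they had 3 to 9 and 2 to 6 reads in JQ1 treatment livers and 4 to 11 and 1 to 24 reads in vehicle livers, and a difference in them was not detectable at this depth. None of the others, Amn, Dab2, Aqp1, Acsm2 and Hnf4a, was called at the end of dosing, against 0.495% of all genes. DESeq2 and an unadjusted p below 0.05 picked none of them either, against 1.95% and 9.53% of all genes. Hnf4a was at a log2 fold change of 0.04 ± 0.10 and Aqp1 at -0.15 ± 0.24. The difference between the organs in the JQ1 treatment effect was called for none of the 9 genes, against 0.169% of all genes, and neither an unadjusted p below 0.05 nor a DESeq2 call was seen, against 7.74% and 0.615%. The 30 genes called in all became 3 with the replicate number as a block. The SE of that difference was 0.14 for Hnf4a and 0.32 for Aqp1, and 0.66 to 6.34 on the log2 scale for the other 7 genes, in which differences of several fold were not detectable.

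The 3 JQ1 recovery livers were not alike. Lrp2 had 5057 reads in JQ1 recovery library 2 and 2005 in library 3, against 20 in library 1 and 4 to 11 in the vehicle livers. In RPM, set against the mean of vehicle kidneys, the 7 members other than Hnf4a and Aqp1 were at 32.4% to 46.1% in library 2 (median 38.5%), at 10.2% to 16.1% in library 3 (median 12.3%) and at 0.0146% to 3.01% in library 1 (median 0.153%, against 0.0262% to 0.0702% in the vehicle livers). Library 1 was above every vehicle liver for Lrp2, for Cubn (10 reads, against 0 to 5), for Gpx3 (26, against 1 to 24) and for Acsm2 (106, against 54 to 68). It lay within the vehicle livers for Amn (32 reads, against 9 to 38), Dab2 (184, against 149 to 255) and Ggt1 (1, against 0 to 3). Genes of other nephron segments were also seen in libraries 2 and 3, though not each marker looked at. Nphs1 of the podocyte, low in kidney too, was at 63% and 57.9% of the vehicle kidney level, within the vehicle livers (27.1% to 64.3%). The 6 podocyte markers together summed to 54.93 and 28.45 CPM, against 10.02 to 13.59 CPM in vehicle livers. Slc12a3 of the distal convoluted tubule was at 35.4% and 10.7% of the vehicle kidney level in libraries 2 and 3, Aqp2 of the collecting duct at 32.3% and 11.9% and Umod at 20% and 13.5%, while Aqp2 had no read in any of the other 8 liver libraries. The 6 hepatocyte markers summed to 23470 to 53050 CPM in JQ1 recovery livers and 58110 to 65830 CPM in vehicle livers. Hnf4a was level, with 149 and 148 RPM in libraries 2 and 3 and 138 in library 1.

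**Figure D4:**
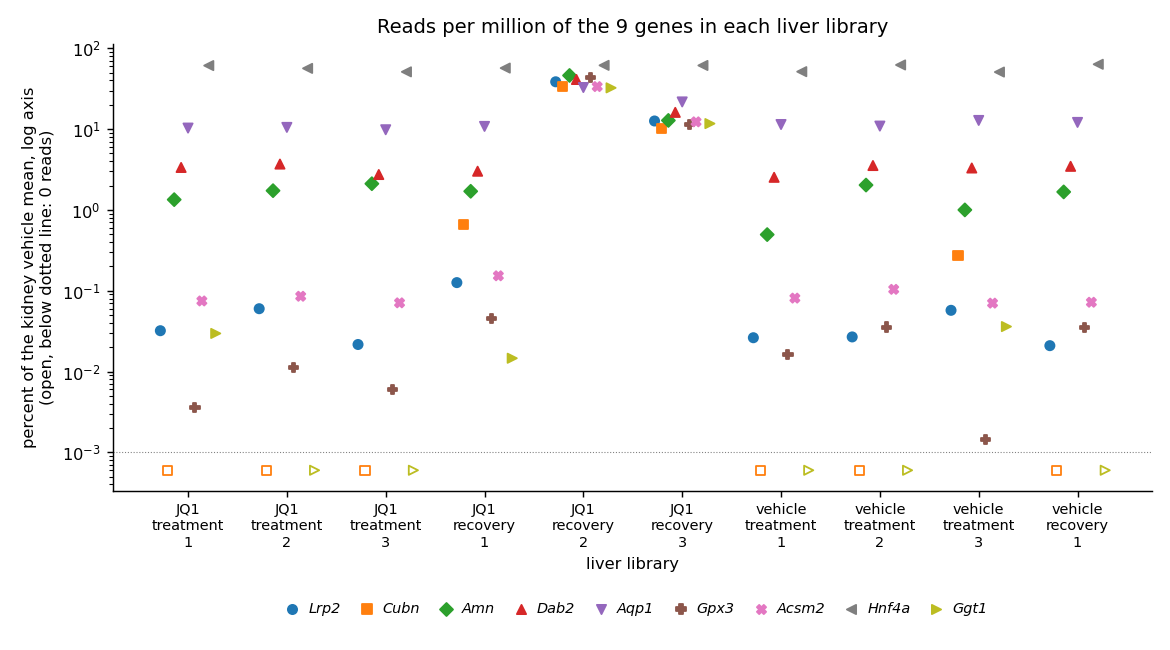
Unscaled reads (RPM, reads per 1000000) of each of the 9 genes in each of the 10 liver libraries, as a percent of the mean of the 4 vehicle kidneys (y axis, log scale; open symbols below the dotted line had 0 reads). In JQ1 recovery libraries 2 and 3 all genes but Hnf4a and Aqp1 stand together at 32.4% to 46.1% and 10.2% to 16.1%, and in the other 8 libraries they spread from 0 reads to a few percent.

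The fitted differences of that group were large with libraries 2 and 3 and small without them. Lrp2 was at a log2 fold change of 8.68 (adjusted p = 0.129), Gpx3 at 9.41 (adjusted p = 0.129), Acsm2 at 7.28, Amn at 3.68, Dab2 at 2.39 and Aqp1 at 0.67 in JQ1 recovery livers against vehicle livers. None was called by edgeR, against 0.0343% of all genes, although for 6 the unadjusted p was below 0.05, against 16.7% of all genes, and 5 were called by DESeq2, against 4.55%. Lrp2 and Gpx3 passed the filter through the reads of this same group, so these counts support nothing. With library 1 alone the values were 1.86 for Lrp2, 1.02 for Gpx3, 0.86 for Acsm2, 0.35 for Amn, -0.14 for Dab2 and -0.18 for Aqp1, none called. The 2 libraries also had the lowest shares among livers by another measure of Dab2, since its downstream start held 9.74% of reads in library 2, within the kidney range, 4.71% in library 3, below every kidney, and 24.3% in library 1, within the range of the other livers. The cause was not tested.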

How the data were processed

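RNA-seq of kidney and liver, 20 libraries in all, was analysed from the deposited transcript tables. The authors used fastp 0.20.1 for trimming and Salmon 1.10.0 for quantification, as the submitters' processing notes and the methods say, and the notes name mm10. The deposited estimated counts divide reads among transcripts by a model, and the deposited TPM set them against transcript length. The deposited transcript length and effective length served only for levels and length-scaled counts.

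Transcript counts were added up by gene and then rounded. Each organ was fitted over its 10 libraries, and both organs over 20, with edgeR 4.0.16 in R 4.3.3 (TMM, robust quasi-likelihood test, filterByExpr with a minimum count of 10 and total of 15), with Benjamini-Hochberg adjustment over 17158 genes in kidney, 14559 in liver and 17710 in both. A gene was called at an adjusted p below 0.05. Values are ± SE for log2 fold changes and ± SD for levels. The edgeR step was tested on simulated data. Alternatives were DESeq2 1.42.0, RLE or no TMM scaling, no filter, length-scaled counts, a replicate block, the compared groups alone, controls of the same age, and each library left out. Transcripts were matched to GENCODE M21 by identifier and length, and counted to a RefSeq start within 500 bases. All 9 genes had a RefSeq window (15 in all). Proteins are not shown.

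The 9 genes and the lists were chosen with earlier results of these data known. Named beside the 9 were up to 4 called genes of each list, by adjusted p, and the 2 genes nearest in pattern with a mean of at least 10 CPM. A few genes that this rule names are not reported here. Replicate numbers were not used to pair libraries, and no source used here says whether kidney and liver of the same number came from 1 animal: in 3 of 22 pairs within an organ and 1 of 10 between organs was the correlation of their deviations over 0.1.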

Additional observations from a re-analysis of the deposited data

Results flagged for a closer look

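In groups of 4 vehicle libraries, 6 values of the 9 genes lay far from the other 3 by Dixon's criterion, where chance flags about 1 group in 20 and 18 were examined. In kidney the vehicle recovery library, the only vehicle kidney of 16 weeks, was highest for Acsm2 (5120 CPM, the others 4499 to 4564 CPM) and for Hnf4a (269.3 CPM, the others 222 to 226.8 CPM). In liver, vehicle treatment library 3 was highest for Lrp2 (0.660 CPM), Cubn (0.300 CPM) and Ggt1 (0.180 CPM), which rest on 11, 5 and 3 reads. For Cubn and Ggt1 the other 3 libraries had no read, so any read at all would have been flagged. The rate by chance does not hold for such low counts. Vehicle treatment library 1 was lowest in liver for Dab2 (11.3 CPM).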

How the results depend on the processing

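Of 387 alternative values of the 9 genes in the 3 kidney comparisons, 354 kept their direction and their side of the threshold, 9 passed it, 2 (Amn) lost it and 22 changed sign. Values with each library left out in turn are given as a range, and where 1 library was left in an arm its spread was assumed to be that of the other groups. Depth limits the liver values of Cubn, Ggt1, Lrp2 and Gpx3 most.

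For JQ1 treatment against vehicle in kidney, 709 genes were called, 1084 with no filter on low counts, 443 with length-scaled counts, 459 with only the compared groups, and 411 (without JQ1 treatment library 3) to 756 with a library left out. Higher and lower calls were 240 and 469, and 100 and 744 without TMM factors. Members called were 1, and 0 without TMM factors, 2 with no filter (Amn and Gpx3), and 0 to 2 with a library left out. Acsm2 turned to -0.031 without TMM factors and ran from -0.00042 to 0.14 with a library left out. Hnf4a turned to 0.032 with vehicle treatment libraries alone and ran from -0.12 to 0.032 with a library left out. The 35 called list genes reversed in none of 525 alternative values, and 17 of them lost the call in at least 1.

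For JQ1 recovery against vehicle in kidney, 1 gene was called, 0 without TMM factors, with length-scaled counts and with the replicate block, 13 with only the compared groups, 103 with DESeq2, 182 with no filter, and 0 to 240 (without vehicle recovery library 1) with a library left out. Members called ran from 0 to 1 (Ggt1, without vehicle recovery library 1). Lrp2 turned to -0.011 without TMM factors and ran from -0.021 to 0.096. Against the vehicle recovery library alone Dab2 was at 0.058, Aqp1 at -0.14, Gpx3 at -0.058, Hnf4a at -0.11 and Ggt1 at -0.019. With a library left out Dab2 ran from -0.032 to 0.015, Aqp1 from -0.012 to 0.18 and Gpx3 from -0.044 to 0.18, and Gpx3 was at -0.0044 with the replicate block.

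For JQ1 treatment against JQ1 recovery in kidney, members called were 0, and 2 with DESeq2 (Dab2 and Ggt1), 1 (Ggt1) with no filter, 1 with length-scaled counts and 1 with only the compared groups, and 0 to 1 (Dab2, without JQ1 treatment library 2) with a library left out. Genes called ran from 675 (without JQ1 recovery library 2) to 1352 with a library left out.

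In liver, JQ1 treatment called 72 genes, 128 with no filter, 36 with length-scaled counts, 284 with DESeq2, 41 with the replicate block, 368 with only the compared groups, 29 with vehicle treatment libraries alone, and 15 to 35 with a library left out. JQ1 recovery called 5, 1 without TMM factors, 226 with no filter, 2 with length-scaled counts, 662 with DESeq2, 2 with the replicate block, 1 with only the compared groups, 1 with the vehicle recovery library alone, 1 with JQ1 recovery library 1 alone, and 0 to 2107 (without JQ1 recovery library 1) with a library left out. Its members called were 0, 5 with DESeq2, and 0 to 8 (without JQ1 recovery library 1). With JQ1 recovery library 1 alone Dab2 turned to -0.14 and Aqp1 to -0.18. Without TMM factors Hnf4a turned to -0.019 in JQ1 treatment and to 0.080 in JQ1 recovery.

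Between vehicle kidneys and vehicle livers Hnf4a turned to 0.012 with RLE scaling, 0.012 with DESeq2 and 0.81 without TMM factors, and ran from -0.11 to 0.0079 with a library left out. The organ difference called 30 genes, 109 with DESeq2, 3 with the replicate block, 17 with vehicle treatment libraries alone, and 12 to 33 with a library left out. The replicate block called 554 genes for JQ1 treatment in kidney and changed no call of a member. Levels of Acsm2, Dab2, Ggt1 and Lrp2 moved with the transcript length used. In each case the cause was not tested.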
